A study of Mus musculus with 16 samples.

Results

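The chemokine ligands are 35 mouse genes listed by name, and all 35 had a row among the 55421 genes of the count table. They were followed in subcapsular sinus macrophages (SSMs) and medullary sinus macrophages (MSMs) from tumor-draining lymph nodes (tdLN) and non-draining lymph nodes (ndLN). All mice were male C57B/6 animals that carried MOC2 cells, a mouse squamous cell carcinoma line, placed into the skin of the flank (500000 cells) 2 weeks before the nodes were taken, so the ndLN come from tumor-bearing mice as well and no tumor-free group enters. The mouse ages were not given in the sources used here. Live CD45+ cells (7AAD-) that carried CD11b and CD169 and lacked the lineage markers CD3, B220 and Ly6G were sorted, the SSMs as their CD11c- fraction of low side scatter and the MSMs as their CD11c+ fraction of high side scatter. Each library came from about 10000 cells of a pool of 2 mice, with 2 nodes per tdLN pool and 6 nodes (contralateral inguinal, axillary and brachial) per ndLN pool. The nodes of the tdLN and ndLN groups therefore differ in site and number as well as in drainage. The 16 samples are 8 libraries, each sequenced on lanes 3 and 4, whose counts were summed because lanes differed by no more than sampling noise (chi-square per degree of freedom 0.955 to 1.02, against 29.3 to 53.1 between libraries of a group). There were 2 libraries in each of the 4 groups, called pool 1 and pool 2. The model fits a pool difference shared by all groups. The p-values measure the spread between libraries of a group that is left after it, estimated over all 4 groups.

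Chemokines are small secreted proteins that bind G protein-coupled receptors on leukocytes and steer their migration. The homeostatic ligands, such as Ccl19, Ccl21a and Cxcl13, are made mainly by stromal cells and place lymphocytes and dendritic cells within the node. The inflammatory ligands are induced in macrophages and other cells by infection and injury, and call in monocytes, neutrophils, eosinophils or activated lymphocytes according to the receptor they bind. Macrophages of the lymph node sinuses are the first cells met by lymph-borne material, and their chemokines can reach cells of the node as well as the lymph.

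Total counts were between 42972328 and 48130352 per library, and the ligands together took between 0.335 and 0.481% of them. Levels are given as CPM (counts scaled to a fixed library total) and normalized by the trimmed mean of M values (TMM), and 3 counts in a library, the floor used here, correspond to between 0.0552 and 0.0769 normalized CPM. A few transcripts of the sort markers and of macrophages were looked up. Siglec1, which encodes the sort marker CD169, was at 59.2 to 70.0 CPM in SSMs from tdLN, at 8.47 to 15.1 CPM in SSMs from ndLN, at 5.64 to 5.96 CPM in MSMs from tdLN and at 0.795 to 1.63 CPM in MSMs from ndLN. Itgam, which encodes CD11b, was at 54.6 to 124 CPM in SSMs and at 9.64 to 20.4 CPM in MSMs. The transcripts of both sort markers were thus lower in MSMs than in SSMs of the same node. The CD11b+ CD169+ label of both fractions rests on surface protein, whereas these values are RNA. In the MSM libraries the conventional dendritic cell markers (10 genes) summed to 6053 to 7469 CPM and the macrophage markers (10 genes) to 4997 to 5663 CPM. Marker sums here and below are not scaled by gene length, so they do not rank the lists within a library. In SSMs from ndLN the macrophage markers summed to 6483 to 9917 CPM. Markers of T cells (2308 to 2535 CPM) and of NK and cytotoxic cells (2969 to 3686 CPM) were present there too. So were those of innate-like lymphoid cells (1981 to 2532 CPM) and of basophils and mast cells (2200 to 3242 CPM). SSM and MSM are used below as the names of the sorted fractions. The macrophage receptor gene Csf1r was at 194 CPM or above in all 8 libraries. In bulk samples a larger number of cells of a type and more RNA per cell cannot be told apart, and this holds for every level below.

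Of the 35 ligands, 33 passed the filter on low counts, whereas Ccl21a and Cxcl14 had no count in any library. A further 10 ligands were tested but stayed under a mean normalized count of 100 per lane (4.43 CPM), the lower limit for a call. Among these, Ccl28 had 11 counts, Ppbp 32, Cxcl5 51, Ccl19 60, Ccl11 65, Ccl27a 162 and Ccl20 216 counts over the 8 libraries together. Pf4 (497 counts), Cxcl11 (774 counts) and Ccl25 (825 counts) were detected in every library, at no more than 4.24 CPM. Near-copies and other ligands outside the 35 genes were also looked up: of 6 such genes, 5 had a row and 1 (Cxcl17) had any count, with 2 counts in all. The remaining 23 ligands could be called, and they spanned from 0 to 1533 CPM.

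**Figure D1:**
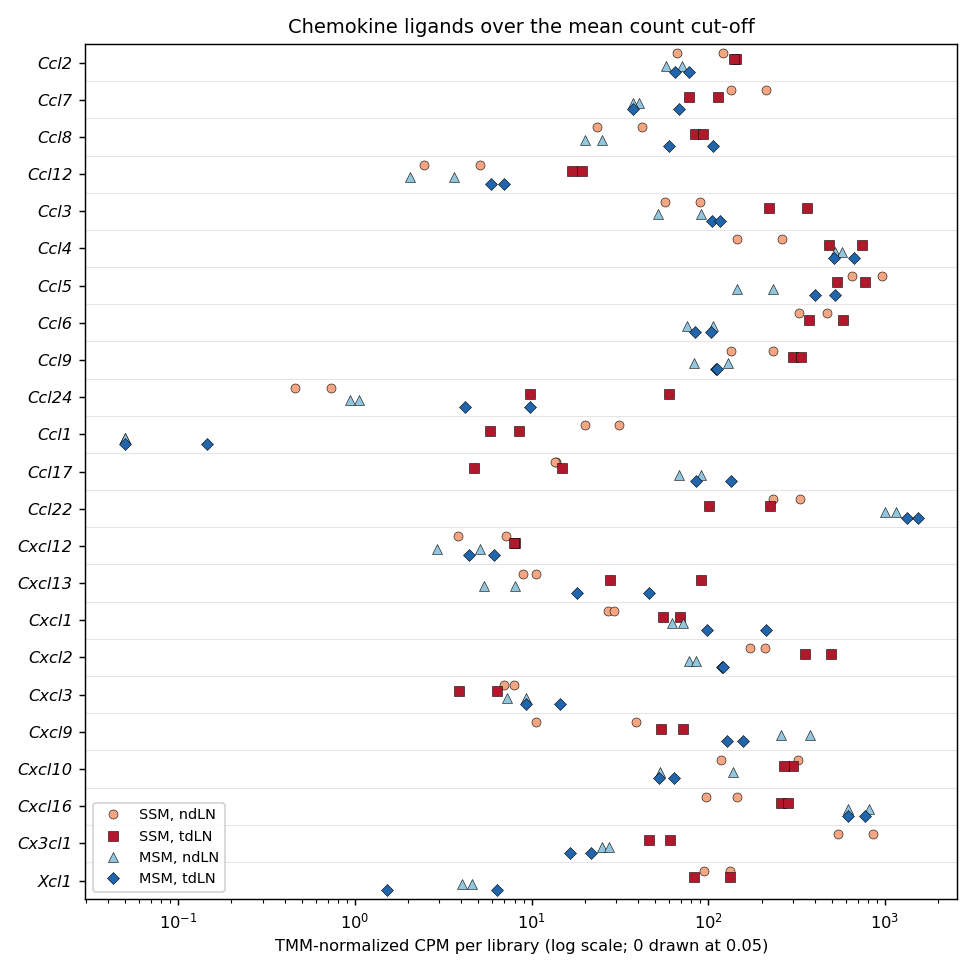
Normalized CPM (log axis) of the 23 chemokine ligands over the mean count limit, with 1 point per library and a color and shape for each of the 4 groups. Cx3cl1 and Xcl1 separate SSMs (warm colors) from MSMs (blue), Ccl22, Ccl17 and Cxcl16 separate them the other way, and Ccl24 and Ccl12 were highest in SSMs from tdLN.

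Genes can be set side by side only per length, so CPM per kb of exon was used to order the ligands within a group. On that scale Ccl5 had the highest level in SSMs from ndLN, at 1004 and 675 CPM per kb in pools 1 and 2, followed by Ccl4 at 396 and 221 CPM per kb, which did not overlap with it. Ccl4 overlapped with Ccl6, Xcl1 and Ccl7 but not with Cx3cl1, and these next 4 genes had means between 177 and 221 CPM per kb. In SSMs from tdLN the order was Ccl4 (733 and 1124 CPM per kb), Ccl5 (559 and 805 CPM per kb) and Ccl3 (288 and 474 CPM per kb), of which Ccl4 and Ccl5 overlapped. In MSMs from ndLN Ccl4 led with 785 and 866 CPM per kb, ahead of Ccl22 with 494 and 431 CPM per kb and Cxcl16 with 267 and 205 CPM per kb. In MSMs from tdLN Ccl4 (783 and 1017 CPM per kb), Ccl22 (573 and 659 CPM per kb) and Ccl5 (421 and 543 CPM per kb) were the 3 highest, without overlap between Ccl4 and Ccl22. The same inflammatory gene, Ccl4, thus stood first in 3 of the 4 groups, and no homeostatic ligand was among the 6 highest of any group.

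The first question was how the ligands differ between the 2 sorted fractions, called subsets below. In ndLN, 11 of the 33 ligands tested were called between SSMs and MSMs, with a mean count over 100 and an adjusted p below 0.01. SSMs had higher levels of 7 ligands (Ccl1, Ccl5, Ccl6, Ccl7, Cxcl2, Cx3cl1 and Xcl1), beside 6.01% of all 21085 genes tested. They had lower levels of 4 ligands (Ccl17, Ccl22, Cxcl9 and Cxcl16), beside 6.06% of all genes. In tdLN, 10 ligands were called, 7 of them higher in SSMs (Ccl1, Ccl6, Ccl12, Cxcl2, Cxcl10, Cx3cl1 and Xcl1), beside 5.16% of all genes, and 3 lower (Ccl17, Ccl22 and Cxcl16), beside 3.52% of all genes. Over the 23 ligands above the mean count limit, the median log2 fold change of SSMs over MSMs was 0.54 in ndLN and 0.89 in tdLN, against -0.06 and 0.01 for all genes above that limit. Unless another tool or setting is named, calls and adjusted p-values here and below are from edgeR's quasi-likelihood test, adjusted by Benjamini and Hochberg's method over all genes tested. The ndLN count fell to 3 without MSM pool 1 from ndLN, to 5 without MSM pool 2 and to 7 without SSM pool 1. The tdLN count fell to 6 without SSM pool 1 from tdLN, to 3 without SSM pool 2, to 4 without MSM pool 1 and to 3 without MSM pool 2, and it was 7 without the filter on low counts.

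**Figure D2:**
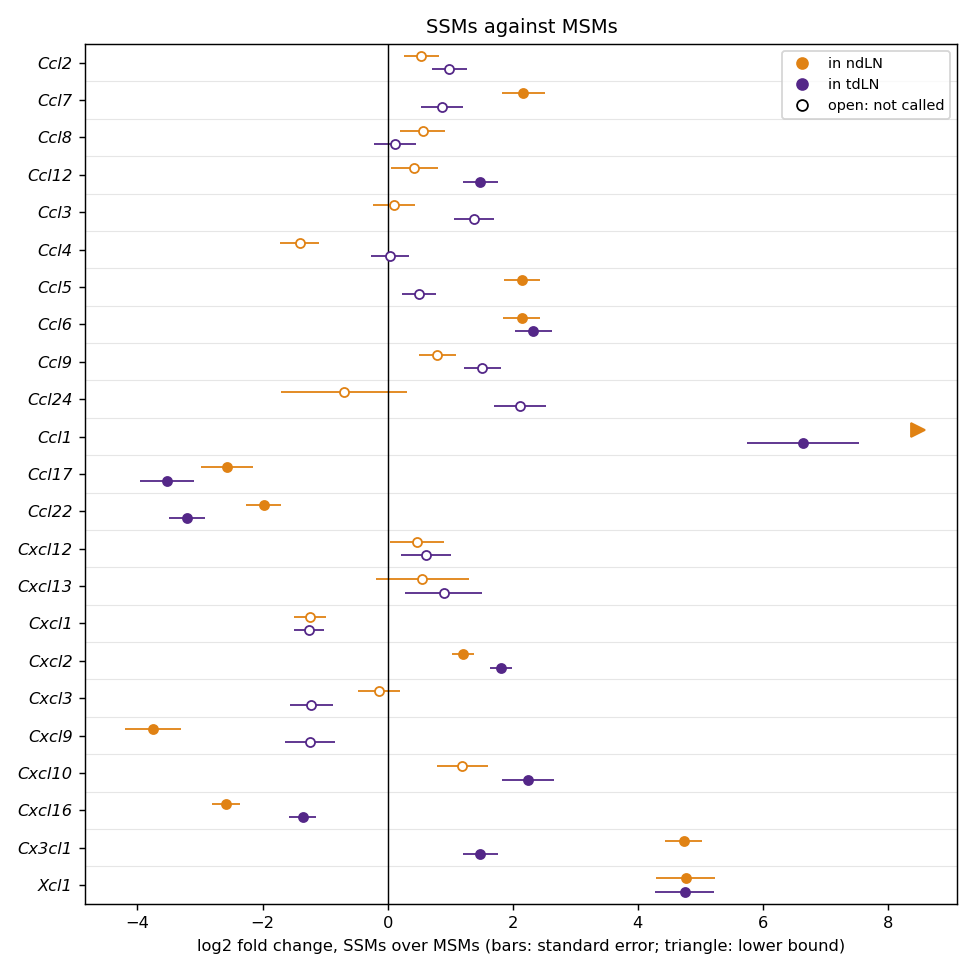
Log2 fold change of SSMs over MSMs with its standard error for the 23 ligands, in ndLN (orange) and tdLN (purple), where filled points passed the test. Ccl1, Cx3cl1 and Xcl1 lie farthest to the right and Cxcl9, Ccl17 and Ccl22 farthest to the left, and the triangle for Ccl1 in ndLN is the lower bound of 356-fold.

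The second question was what differs with tumor drainage. In SSMs, 4 ligands were called between tdLN and ndLN: Ccl12, Ccl24 and Cxcl2 were higher in tdLN, beside 1.98% of all genes tested, and Cx3cl1 was lower, beside 1.05%. In MSMs none was called by edgeR, beside 0.00474% of all genes higher and 0.019% lower in tdLN. For MSMs, 8 of the 33 ligands had an unadjusted p under 0.05, and a DESeq2 Wald test called 5 (Ccl5, Ccl8, Ccl24, Cxcl1 and Cxcl13), all higher in tdLN. The interaction, which tests whether the node difference itself differs between the subsets, called no ligand, beside 0.0332% of all genes with a positive and 0.00474% with a negative term. For the interaction, 12 ligands had an unadjusted p under 0.05, and DESeq2 called 5 (Ccl24, Cxcl9, Cxcl16, Ccl5 and Cx3cl1). For the counts at an unadjusted p under 0.05 and by DESeq2, the share of all genes is not given here. These counts are therefore not read as a result about the ligands. The median log2 fold change of tdLN over ndLN was 0.59 over 23 ligands in SSMs and 0.41 over 22 ligands in MSMs, against 0.05 and 0.01 for all genes above the mean count limit. Ccl1 was left out of the median in MSMs, where it was at 0 counts in 3 of 4 libraries. The SSM count rested on few libraries: it was 0 without either SSM library from tdLN, 1 (Cx3cl1) without SSM pool 2 from ndLN, 3 (Ccl3, Ccl4 and Cx3cl1) without SSM pool 1 from ndLN, and 2 (Ccl24 and Cx3cl1) without any single MSM library. The 4 contrasts between groups share libraries and are not independent of each other.

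**Figure D3:**
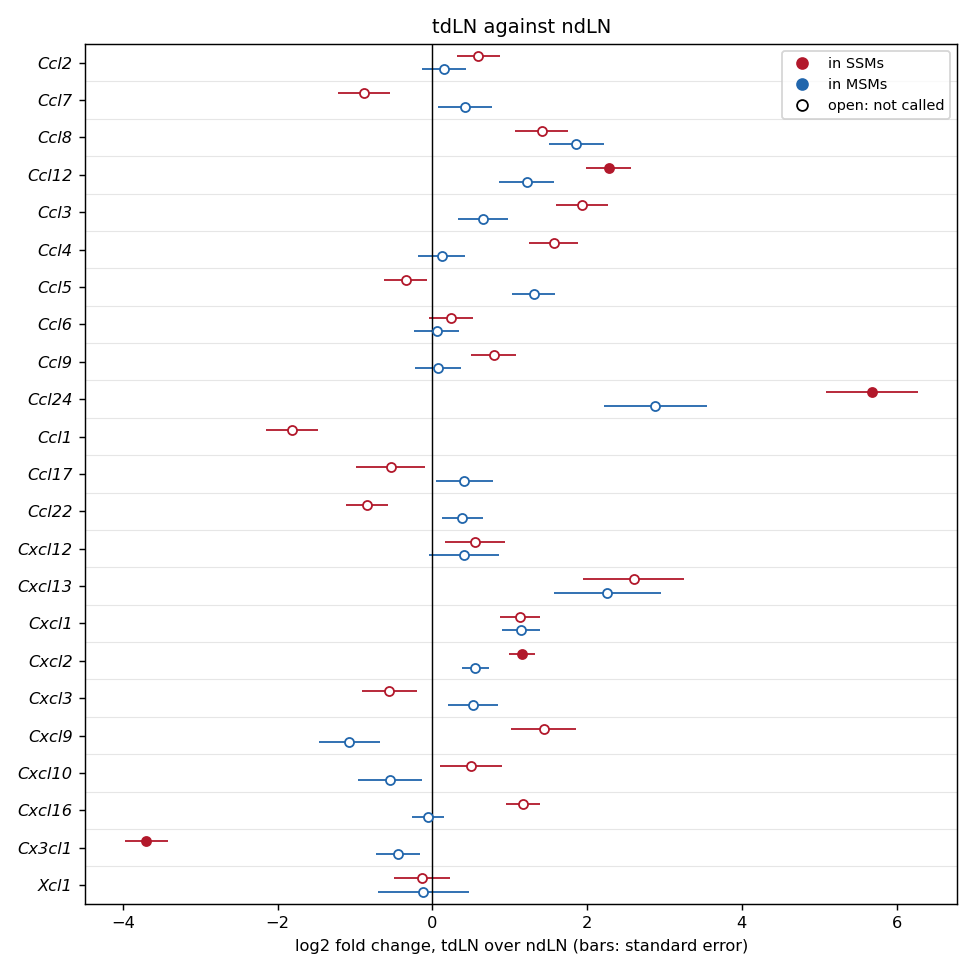
Log2 fold change of tdLN over ndLN with its standard error for the 23 ligands, in SSMs (red) and MSMs (blue), where filled points passed the test. In SSMs Ccl24 lies farthest to the right (5.68) and Cx3cl1 farthest to the left (-3.70), no MSM point is filled, and Ccl1 in MSMs is not drawn because it was at or near 0.

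Ccl2, Ccl7 and Ccl12 are ligands of CCR2, the receptor that brings monocytes out of the bone marrow. They lie with Ccl8, Ccl11 and Ccl1 in a run of 6 members at chr11:82035571-82305690 (GRCm38). Ccl7 was at 213 and 134 CPM in SSMs from ndLN (pools 1 and 2), at 77.8 and 114 CPM in SSMs from tdLN, at 40.3 and 37.6 CPM in MSMs from ndLN and at 37.3 and 68.2 CPM in MSMs from tdLN. Every SSM library was above every MSM library, and the SSMs from ndLN were highest. Ccl7 was 4.45-fold higher in SSMs than MSMs in ndLN (log2 fold change 2.17, SE 0.35, adjusted p = 0.00353 by edgeR), and in tdLN the log2 fold change was 0.87 (SE 0.34, adjusted p = 0.143). Ccl12, a mouse ligand with no direct human counterpart, was at 5.11 and 2.45 CPM in SSMs from ndLN, at 19.2 and 16.8 CPM in SSMs from tdLN, at 3.61 and 2.05 CPM in MSMs from ndLN and at 7.0 and 5.92 CPM in MSMs from tdLN. The 2 libraries of SSMs from tdLN stood above all 6 others. Ccl12 rose 4.77-fold in tdLN SSMs over ndLN SSMs (log2 fold change 2.28, SE 0.29, adjusted p = 0.00457), and it was 2.79-fold higher in SSMs than MSMs of tdLN (1.48, SE 0.28, adjusted p = 0.00931). The latter call was lost without pool in the model (adjusted p = 0.0127) and without the filter on low counts (adjusted p = 0.0114), and the node call was lost in all 8 fits that left out a library (adjusted p up to 0.0749). Ccl8 had 42.0 and 23.5 CPM in SSMs from ndLN against 84.2 and 93.4 CPM in tdLN, and 20.1 and 25.0 CPM in MSMs from ndLN against 59.6 and 106 CPM in tdLN. Its groups did not overlap between nodes in either subset, but its adjusted p was 0.0433 in SSMs and 0.0989 in MSMs. Ccl2, the prototype monocyte attractant, stayed between 57.5 and 143 CPM in all libraries and was called in no contrast by edgeR, although DESeq2 called it higher in SSMs in tdLN, as did edgeR without either SSM library from ndLN.

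Ccl5, Ccl9, Ccl6, Ccl3 and Ccl4, inflammatory ligands that attract monocytes and lymphocytes, include the most abundant ligands per kb of most groups, and they lie side by side at chr11:83525778-83664683. Ccl5 (RANTES), which is also a product of T and NK cells, was at 964 and 648 CPM in SSMs from ndLN, at 536 and 773 CPM in SSMs from tdLN, at 145 and 232 CPM in MSMs from ndLN and at 404 and 521 CPM in MSMs from tdLN. It was 4.28-fold higher in SSMs than MSMs in ndLN (log2 fold change 2.15, SE 0.29, adjusted p = 0.00144), whereas in tdLN the log2 fold change was 0.49 (SE 0.27, adjusted p = 0.294). Ccl5 in MSMs had a log2 fold change of 1.31 between nodes (SE 0.28, adjusted p = 0.128), and its interaction term was -1.65 (SE 0.39, adjusted p = 0.121). Ccl6, a ligand of CCR1 found in rodents, was at 471 and 324 CPM in SSMs from ndLN, at 371 and 577 CPM in SSMs from tdLN, at 75.8 and 106 CPM in MSMs from ndLN and at 103 and 84.3 CPM in MSMs from tdLN. Its SSM and MSM libraries did not overlap in either node, with log2 fold changes of 2.14 (SE 0.30, adjusted p = 0.00172) in ndLN and 2.33 (SE 0.30, adjusted p = 0.00165) in tdLN. Between nodes the log2 fold change of Ccl6 was 0.24 (SE 0.28) in SSMs and 0.05 (SE 0.29) in MSMs.

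Ccl4 (MIP-1 beta) was at 262 and 146 CPM in SSMs from ndLN, at 484 and 742 CPM in SSMs from tdLN, at 518 and 572 CPM in MSMs from ndLN and at 517 and 671 CPM in MSMs from tdLN. The SSMs from ndLN were therefore the low group, and the other 3 groups overlapped. Ccl4 missed the limit in both contrasts that involve this group: the log2 fold change was 1.57 between nodes in SSMs (SE 0.31, adjusted p = 0.0224) and -1.40 between SSMs and MSMs in ndLN (SE 0.31, adjusted p = 0.0147). Without pool in the model the ndLN difference passed (adjusted p = 0.00732), and it also passed by DESeq2 and on lane 3 alone. The node difference of Ccl4 in SSMs passed by DESeq2. Ccl3 (MIP-1 alpha), the neighbor of Ccl4 on the chromosome, had the same low and high groups within SSMs, with 89.5 and 57.2 CPM in ndLN against 221 and 363 CPM in tdLN (log2 fold change 1.93, SE 0.33, adjusted p = 0.0134). This difference of Ccl3 passed without pool in the model, by DESeq2 and on lane 3 alone. Ccl9 lay between 82.5 and 334 CPM, with its highest libraries in SSMs from tdLN. Its log2 fold change of SSMs over MSMs in tdLN was 1.51 (adjusted p = 0.0116), which passed by DESeq2, without pool in the model, on lane 3 alone and without either SSM library from ndLN.

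Ccl1, Ccl17 and Ccl22, ligands of CCR4 or CCR8, receptors of Th2, regulatory and skin-homing T cells, split between the subsets. Ccl1, which binds CCR8, was at 31.1 and 20.1 CPM in SSMs from ndLN and at 5.78 and 8.53 CPM in SSMs from tdLN, but it had 0 counts in both MSM libraries from ndLN and 6 and 0 counts in those from tdLN. Against the floor of 3 counts per library, the ndLN SSMs had at least 356-fold higher Ccl1 (adjusted p = 0.000114), and in tdLN the ratio of the means was 98.4 (log2 fold change 6.64, SE 0.89, adjusted p = 0.0016). The tdLN ratio rests on 6 counts in a single MSM library. The fitted log2 fold change was 5.69 without MSM pool 2 (adjusted p = 0.0476) and 11.28 without MSM pool 1 (adjusted p = 0.0339), which leaves the MSMs at 0 counts, and without SSM pool 2 the call was lost as well (adjusted p = 0.0114). The ndLN call held in all 8 fits that left out a library. Between nodes Ccl1 in SSMs had a log2 fold change of -1.82 (SE 0.34, adjusted p = 0.0149), which passed without pool in the model (adjusted p = 0.0079). Ccl22 and Ccl17, which bind CCR4 and are typical of dendritic cells and alternatively activated macrophages, were high in MSMs. Ccl22 was at 233 and 331 CPM in SSMs from ndLN, at 101 and 223 CPM in SSMs from tdLN, at 1148 and 1003 CPM in MSMs from ndLN and at 1332 and 1533 CPM in MSMs from tdLN. It was 3.81-fold lower in SSMs in ndLN (log2 fold change -1.98, SE 0.28, adjusted p = 0.00193) and 8.85-fold lower in tdLN (-3.21, SE 0.29, adjusted p = 0.000399). Ccl17 was at 13.8 and 13.5 CPM in SSMs from ndLN, at 4.71 and 14.9 CPM in SSMs from tdLN, at 91.3 and 68.1 CPM in MSMs from ndLN and at 85.6 and 135 CPM in MSMs from tdLN. It was 5.84-fold lower in SSMs in ndLN (adjusted p = 0.0034) and 11.3-fold lower in tdLN (adjusted p = 0.00138). The list of conventional dendritic cell markers moved the same way, with a summed level of 6053 to 7469 CPM in MSMs against 1741 to 3187 CPM in SSMs, and 7 of its 10 genes lower in SSMs in ndLN and 9 in tdLN. The part of these cells in the levels of Ccl17 and Ccl22 was not tested.

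Ccl24 (eotaxin-2), a ligand of the eosinophil receptor CCR3 at chr5:135569937-135573049, had the largest fold change between nodes in SSMs among the 23 ligands. It was at 0.460 and 0.728 CPM in SSMs from ndLN, at 9.80 and 60.2 CPM in SSMs from tdLN, at 1.05 and 0.936 CPM in MSMs from ndLN and at 4.17 and 9.84 CPM in MSMs from tdLN. All tdLN libraries were above all ndLN libraries, and pool 2 of the SSMs from tdLN stood apart from every other library. In SSMs Ccl24 rose 59.0-fold (log2 fold change 5.68, SE 0.59, adjusted p = 0.00225), and in MSMs the ratio was 7.05-fold (2.88, SE 0.66, adjusted p = 0.152). The interaction term of 2.80 (SE 1.11) had an adjusted p of 0.349. The SSM call was lost without pool in the model (adjusted p = 0.011) and when any of the 4 SSM libraries was left out. Of the eosinophil markers, Prg2, the major basic protein gene, was at 53.9 CPM in that library and at no more than 4.56 CPM in the others. Epx, the eosinophil peroxidase gene, was at 6.44 CPM there and at no more than 0.550 CPM elsewhere. The rest of the list (Siglecf, Ccr3 and Il5ra) was together lower in that library than in either library of SSMs from ndLN. The 5 eosinophil markers summed to 12.6 and 103 CPM in SSMs from tdLN and to between 55.5 and 71.4 CPM in SSMs from ndLN, where Ccl24 was at 0.460 and 0.728 CPM, and no eosinophil marker was called between nodes. Their part in the Ccl24 level was not tested. Ccl11 (eotaxin-1) had 53 of its 65 counts in a single library, pool 2 of the SSMs from ndLN.

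Ccl20, the ligand of CCR6, was found almost only in SSMs but at very low levels, with 80 and 20 counts in ndLN and 23 and 89 counts in tdLN. The MSM libraries held 0 and 0 counts in ndLN and 0 and 4 counts in tdLN. Against the floor Ccl20 was at least 13.0-fold higher in SSMs of ndLN, at an adjusted p of 0.0941, and its mean count was under the limit for a call.

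Of the 8 homeostatic ligands, Cxcl13 and Cxcl12 alone were over the mean count limit, and edgeR called none, whereas DESeq2 called Cxcl13 higher in tdLN in both subsets. Cxcl13, which draws B cells into follicles, was at 10.6 and 8.95 CPM in SSMs from ndLN, at 27.7 and 90.5 CPM in SSMs from tdLN, at 8.02 and 5.37 CPM in MSMs from ndLN and at 46.1 and 18.2 CPM in MSMs from tdLN. The tdLN libraries were above the ndLN libraries in both subsets, with log2 fold changes of 2.60 (SE 0.65, adjusted p = 0.0488) in SSMs and 2.26 (SE 0.70, adjusted p = 0.266) in MSMs. Cxcl12 ranged from 2.90 to 8.03 CPM. Ccl19 and Ccl21a, the ligands of CCR7, were at no more than 0.290 CPM and at 0, and 52.0 and 71.6% of their 50-base windows occur in other genes, so reads from them can be lost in counting.

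The ligands of CXCR2, the main receptor of neutrophils, lie together with Pf4 at chr5:90759360-90905938, and they lay on different sides of the subset contrast. Cxcl2 (MIP-2) was at 208 and 171 CPM in SSMs from ndLN, at 497 and 353 CPM in SSMs from tdLN, at 78.1 and 85.0 CPM in MSMs from ndLN and at 119 and 120 CPM in MSMs from tdLN. The 4 groups did not overlap. Cxcl2 was higher in SSMs by a log2 fold change of 1.21 in ndLN (SE 0.18, adjusted p = 0.00225) and 1.81 in tdLN (SE 0.18, adjusted p = 0.000522), and it rose 2.24-fold between nodes in SSMs (1.16, SE 0.17, adjusted p = 0.00805). The node call was lost with DESeq2 size factors (adjusted p = 0.0102) and in all 8 fits that left out a library. Cxcl1 (KC) lay the other way between subsets, at 27.2 and 29.1 CPM in SSMs from ndLN, 55.6 and 69.1 CPM in SSMs from tdLN, 62.3 and 71.7 CPM in MSMs from ndLN and 98.7 and 211 CPM in MSMs from tdLN. Its log2 fold change of SSMs over MSMs was -1.24 in ndLN (adjusted p = 0.0105) and -1.26 in tdLN (adjusted p = 0.0116). Cxcl3 stayed between 3.90 and 14.5 CPM and was called in no contrast, and 5.84 and 4.29% of the 50-base windows of Cxcl2 and Cxcl3 are shared with other genes. Of 8 neutrophil markers, 1 was higher in SSMs than MSMs in ndLN and 3 in tdLN, and none was called between nodes. They summed to between 23.2 and 215 CPM in SSMs from ndLN, to between 180 and 434 CPM in SSMs from tdLN and to no more than 1.77 CPM in MSMs, while Ly6g, the gate marker, was at 0 in 7 of the 8 libraries. Their part in the Cxcl2 level was not tested.

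The start regions of Cxcl1, Cxcl2 and Cxcl3 are shown because the 3 neighbors carry the same letters and yet had different levels. Each sequence runs from 250 bases before to 50 bases after the RefSeq start (GRCm38.p6), 5′ to 3′, in the direction of the gene, and capitals mark letters that match a searched motif.
Cxcl1, chr5:90890995-90891294, plus strand: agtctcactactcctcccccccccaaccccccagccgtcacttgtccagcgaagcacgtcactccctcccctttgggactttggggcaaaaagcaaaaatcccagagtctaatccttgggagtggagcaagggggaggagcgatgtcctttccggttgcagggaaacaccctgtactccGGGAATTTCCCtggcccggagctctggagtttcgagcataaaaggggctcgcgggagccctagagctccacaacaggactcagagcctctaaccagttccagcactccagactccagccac
Cxcl2, chr5:90903649-90903948, plus strand: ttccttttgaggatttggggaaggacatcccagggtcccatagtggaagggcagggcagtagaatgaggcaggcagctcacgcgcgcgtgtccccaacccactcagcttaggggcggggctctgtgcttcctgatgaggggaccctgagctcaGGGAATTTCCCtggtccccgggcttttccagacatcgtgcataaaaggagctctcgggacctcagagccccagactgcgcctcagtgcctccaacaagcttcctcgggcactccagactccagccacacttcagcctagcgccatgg
Cxcl3, chr5:90785851-90786150, plus strand: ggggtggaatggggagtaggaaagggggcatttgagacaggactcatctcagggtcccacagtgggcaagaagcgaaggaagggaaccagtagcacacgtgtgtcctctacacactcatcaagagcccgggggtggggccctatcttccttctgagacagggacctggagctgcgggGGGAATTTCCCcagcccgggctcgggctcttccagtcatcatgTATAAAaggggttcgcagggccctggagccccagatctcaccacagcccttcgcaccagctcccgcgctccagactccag
The motifs searched, on both strands, were the NF-kB site by its consensus, the interferon-stimulated response element TTTCNNTTTC, the gamma-activated site TTCNNNGAA, the AP-1 site TGANTCA and TATAAA. The NF-kB consensus begins 71, 97 and 73 bases before the start of Cxcl1, Cxcl2 and Cxcl3, and its letters read on both strands in overlap. Cxcl3 also has TATAAA, beginning 30 bases before the start. The NF-kB consensus was found in 7 of the 26 ligands with an entry and in 4.51% of the 32851 start regions of all genes. TTTCNNTTTC was found in 3 of the 26 ligands and 3.44% of all start regions, and TTCNNNGAA in 2 and 8.30%. TGANTCA was found in 6 of the 26 ligands and 7.81% of all start regions, and TATAAA in 9 and 13.6%. A ligand with several entries counts if any of them holds the motif, so ligand counts and shares of start regions differ in unit. These matches are a description of the letters and were not tested for binding.

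The ligands of CXCR3, the receptor of Th1, CD8 and NK cells, are induced by interferons and sit side by side at chr5:92321347-92365485, yet Cxcl9 and Cxcl10 lay on opposite sides of the subset contrast. Cxcl9 was at 39.1 and 10.6 CPM in SSMs from ndLN, at 72.2 and 53.8 CPM in SSMs from tdLN, at 374 and 258 CPM in MSMs from ndLN and at 128 and 157 CPM in MSMs from tdLN. It was 12.7-fold lower in SSMs in ndLN (log2 fold change -3.75, SE 0.44, adjusted p = 0.000834), and in tdLN the log2 fold change was -1.24 (SE 0.40, adjusted p = 0.0831). Cxcl9 was higher in tdLN in both pools of SSMs and lower in both pools of MSMs, with log2 fold changes of 1.44 (SE 0.42, adjusted p = 0.0818) and -1.07 (SE 0.40, adjusted p = 0.343). Cxcl10 (IP-10) was at 323 and 118 CPM in SSMs from ndLN, at 300.2 and 268 CPM in SSMs from tdLN, at 138 and 53.6 CPM in MSMs from ndLN and at 52.7 and 63.6 CPM in MSMs from tdLN. Pool 1 was the higher library in both ndLN groups. Cxcl10 was 4.89-fold higher in SSMs in tdLN (log2 fold change 2.25, SE 0.42, adjusted p = 0.00927), and in ndLN, where the groups overlapped, the log2 fold change was 1.20 (adjusted p = 0.0725). The tdLN call was lost without pool in the model (adjusted p = 0.0154), without the filter on low counts (adjusted p = 0.0101) and in all 8 fits that left out a library. Art3, on the opposite strand, overlaps 5.91% of the exon bases of Cxcl10. Cxcl11, annotated as a polymorphic pseudogene, stayed at 3.83 CPM or below. Of its exon bases 41.7% lie on the antisense gene Gm2673, from which its reads cannot be told apart here.

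The start regions of Cxcl9 and Cxcl10 are shown because the pair shares a receptor and a locus and differs in sign between the subsets.
Cxcl9, chr5:92328030-92328329, minus strand: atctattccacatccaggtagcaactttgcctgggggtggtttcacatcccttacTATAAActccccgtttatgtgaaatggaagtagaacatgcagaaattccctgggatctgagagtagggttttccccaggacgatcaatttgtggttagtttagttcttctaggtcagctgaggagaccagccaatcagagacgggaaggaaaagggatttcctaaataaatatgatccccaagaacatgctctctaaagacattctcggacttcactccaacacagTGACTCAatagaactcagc
Cxcl10, chr5:92348840-92349139, minus strand: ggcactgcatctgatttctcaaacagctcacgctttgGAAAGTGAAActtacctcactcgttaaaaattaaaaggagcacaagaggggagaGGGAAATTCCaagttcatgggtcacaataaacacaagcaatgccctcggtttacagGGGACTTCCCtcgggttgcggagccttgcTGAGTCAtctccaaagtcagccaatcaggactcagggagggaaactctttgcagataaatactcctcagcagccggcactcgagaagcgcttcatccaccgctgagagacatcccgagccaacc
In the Cxcl10 window the capitals are a TTTCNNTTTC match on the opposite strand, 2 NF-kB matches and a TGANTCA match, beginning 213, 159, 103 and 74 bases before the start. The Cxcl9 window holds TATAAA 195 bases before the start and TGANTCA after it, and none of the other motifs.

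The ligands with a membrane-bound form, Cxcl16 and Cx3cl1, which can act as adhesion molecules as well as attractants, went in opposite directions. Cx3cl1 (fractalkine) was at 538 and 851 CPM in SSMs from ndLN, at 60.4 and 46.4 CPM in SSMs from tdLN, at 24.9 and 27.3 CPM in MSMs from ndLN and at 21.8 and 16.5 CPM in MSMs from tdLN. The SSMs from ndLN were far above the 6 other libraries, and SSMs were above MSMs in each node. Cx3cl1 was 26.6-fold higher in SSMs in ndLN (log2 fold change 4.73, SE 0.29, adjusted p = 4.67e-05), a call that held in all 8 fits that left out a library. It was 2.79-fold higher in tdLN (1.48, SE 0.28, adjusted p = 0.00917). The tdLN call was lost whenever one of the 4 tdLN libraries was left out, with fitted values of 1.19 to 1.78 over the 8 fits. It was also lost without the filter on low counts (adjusted p = 0.0101). Between nodes it fell 13.0-fold in SSMs (log2 fold change -3.70, SE 0.28, adjusted p = 0.0011), whereas in MSMs the log2 fold change was -0.45 (SE 0.28, adjusted p = 0.579). The SSM call was lost without either SSM library from tdLN, with adjusted p-values up to 0.0353. The interaction term was -3.25 (SE 0.38, adjusted p = 0.0186), an adjusted p that was the lowest among the ligands and missed 0.01. Markers of basophils and mast cells summed to between 2200 and 3242 CPM in SSMs from ndLN and to between 420 and 869 CPM in SSMs from tdLN, with 2 of the 12 genes lower and 1 higher in tdLN. The innate-like lymphoid markers summed to between 1981 and 2532 CPM and to between 776 and 852 CPM, with 6 of 12 genes lower in tdLN. Their part in the Cx3cl1 level was not tested.

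Cxcl16, at chr11:70453983-70459984, was at 96.8 and 145 CPM in SSMs from ndLN, at 257 and 283 CPM in SSMs from tdLN, at 808 and 618 CPM in MSMs from ndLN and at 621 and 768 CPM in MSMs from tdLN. All MSM libraries were above all SSM libraries. Cxcl16 was 5.89-fold lower in SSMs in ndLN (log2 fold change -2.58, SE 0.23, adjusted p = 0.000211), held in all 8 fits that left out a library. In tdLN it was 2.57-fold lower (-1.36, SE 0.21, adjusted p = 0.00438). The tdLN call was lost whenever one of the 4 tdLN libraries was left out, with fitted values of -1.46 to -1.26 over the 8 fits. In SSMs the log2 fold change between nodes was 1.17 (SE 0.22, adjusted p = 0.0169), and in MSMs it was -0.06 (SE 0.21). Of its exon bases 18.3% lie on Zmynd15 on the opposite strand, and the sources used here do not state whether counting used the strand.

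Cx3cl1 lies between Ccl22 and Ccl17 at chr8:94745590-94812036, and its subset pattern was opposite to that of both neighbors. The start regions of Cx3cl1 and Ccl17 are shown for this reason, and Ccl22 has an entry whose window held no match to any of the 5 motifs.
Cx3cl1, chr8:94771930-94772229, plus strand: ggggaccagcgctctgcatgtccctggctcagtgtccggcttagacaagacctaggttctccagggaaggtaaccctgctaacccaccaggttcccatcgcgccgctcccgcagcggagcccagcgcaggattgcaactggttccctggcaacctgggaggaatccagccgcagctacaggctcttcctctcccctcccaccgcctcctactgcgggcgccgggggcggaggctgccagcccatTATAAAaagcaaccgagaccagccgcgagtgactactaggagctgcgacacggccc
Ccl17, chr8:94810203-94810502, plus strand: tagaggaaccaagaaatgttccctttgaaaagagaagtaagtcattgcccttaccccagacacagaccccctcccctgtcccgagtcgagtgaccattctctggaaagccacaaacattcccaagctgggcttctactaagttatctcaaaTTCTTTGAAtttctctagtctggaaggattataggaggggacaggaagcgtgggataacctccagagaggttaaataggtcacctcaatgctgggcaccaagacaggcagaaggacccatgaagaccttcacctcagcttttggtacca
Here the capitals mark TATAAA at Cx3cl1, beginning 6 bases before the start, and TTCNNNGAA at Ccl17, beginning 99 bases before it, so the windows share no motif.

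Xcl1 (lymphotactin), the ligand of XCR1 on cross-presenting dendritic cells and a product of NK and CD8 T cells, was at 132 and 95.0 CPM in SSMs from ndLN, at 83.1 and 132 CPM in SSMs from tdLN, at 4.02 and 4.57 CPM in MSMs from ndLN and at 1.53 and 6.41 CPM in MSMs from tdLN. It was 26.4-fold higher in SSMs in ndLN (log2 fold change 4.77, SE 0.47, adjusted p = 0.00037) and 27.1-fold higher in tdLN (4.75, SE 0.47, adjusted p = 0.000567), and it was called in neither node contrast. The NK and cytotoxic markers had the same split, with a sum of 2266 to 3686 CPM in SSMs and 260 to 378 CPM in MSMs, and 9 of the 10 genes were higher in SSMs in each node. Their part in the Xcl1 level was not tested. Gm20743, on the opposite strand, overlaps 18.7% of the exon bases of Xcl1. Pf4, the platelet factor, was at 0.441 and 0.344 CPM in SSMs from ndLN against 2.74 and 2.93 CPM in tdLN (log2 fold change 2.83, SE 0.53, adjusted p = 0.0175), below the mean count limit, while the platelet and megakaryocyte markers summed to no more than 8.32 CPM in any library.

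The receptors were read beside the ligands in the same libraries. Of 18 chemokine receptors, 17 were tested. SSMs had 10 of them higher and 2 lower than MSMs in ndLN, and 10 higher and 4 lower in tdLN. Cxcr6, the receptor of Cxcl16, was at 1324 and 1703 CPM in SSMs from ndLN and at 17.9 and 20.8 CPM in MSMs from ndLN, the reverse of its ligand. Xcr1, the receptor of Xcl1 and also a dendritic cell marker, was at 24.9 and 33.6 CPM in SSMs and at 752 and 701 CPM in MSMs of ndLN, again the reverse of its ligand. Ccr8 had the same sign as its ligand Ccl1, with means of 105 CPM in SSMs and 9.24 CPM in MSMs of ndLN. Ccr4 was higher in SSMs (32.6 against 1.34 CPM in ndLN), while its ligands Ccl17 and Ccl22 were higher in MSMs. Cx3cr1 was higher in SSMs, as was Cx3cl1, with means of 57.8 and 12.2 CPM in ndLN.

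**Figure D4:**
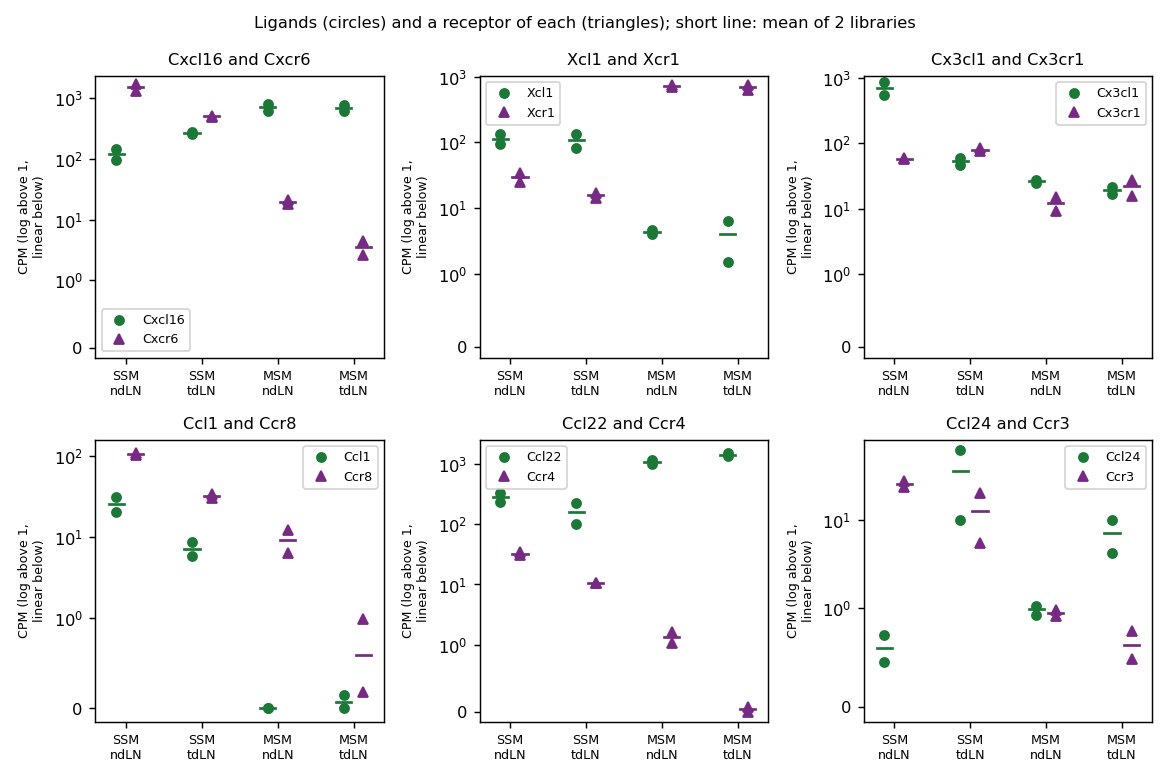
CPM per library (log axis above 1, linear below) of 6 ligands (green circles) and a receptor of each (purple triangles) in the 4 groups, with a short line at the mean of 2 libraries. Ligand and receptor have opposite subset patterns for Cxcl16, Xcl1 and Ccl22 and the same pattern for Cx3cl1 and Ccl1, and the highest Ccl24 levels were in tdLN.

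Between nodes in SSMs, 2 receptors rose in tdLN, among them Ccr2, the monocyte receptor (log2 fold change 1.20). The 5 receptors that fell were Cxcr5 (-2.32), Ccr6 (-1.75), Ccr8 (-1.72), Ccr4 (-1.61) and Cxcr6 (-1.58), receptors known mainly from lymphocytes. No receptor was called between nodes in MSMs or in the interaction. Among the other receptors called between subsets, Ccr1, Ccr2, Ccr3 and Ccr6 were higher in SSMs in both nodes, and Ccr9 was lower in both. Cxcr5 was higher in SSMs in ndLN alone and Cxcr4 in tdLN alone, while Ccr7 and Cxcr3 were lower in tdLN alone, and the interaction called none of these. Of the 4 atypical receptors, which bind chemokines without G protein signaling, 3 were tested and none was called, and their sum was at most 6.69 CPM.

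Marker lists of other cells also differed between the groups. T cell markers summed to 2308 to 2535 CPM in SSMs from ndLN, 1018 to 1170 CPM in SSMs from tdLN, 678 to 824 CPM in MSMs from ndLN and 492 to 534 CPM in MSMs from tdLN. Of the 11 T cell markers, 10 were higher and 1 lower in SSMs in ndLN, although CD3 was a negative gate. The innate-like lymphoid markers were all higher in SSMs (12 of 12 in each node). Macrophage markers summed to 16899 to 24800 CPM in SSMs from tdLN, against 6483 to 9917 CPM in SSMs from ndLN and 4997 to 5663 CPM in MSMs. SSMs had 5 of the 10 macrophage markers higher and 2 lower than MSMs in ndLN, and 7 higher in tdLN. Between nodes in SSMs, 7 of the 10 macrophage markers rose in tdLN. B cell markers summed to 1492 CPM in 1 MSM library from ndLN and to 356 CPM or less in the others. Stromal sources of homeostatic ligands were low, with sums of at most 40.2 CPM for fibroblastic reticular markers and 93.7 CPM for endothelial markers. The part of these cells in the ligand levels was not tested.

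**Figure D5:**
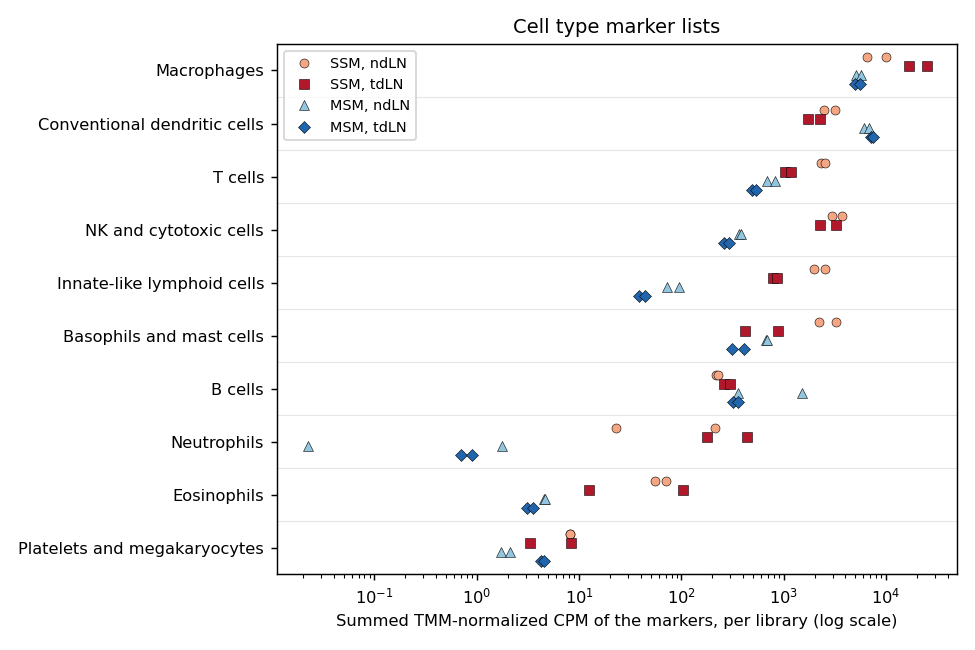
Summed CPM (log axis) of the marker genes of 10 cell types, with 1 point per library in the 4 groups. T, NK, innate-like lymphoid, basophil and neutrophil markers had higher sums in SSMs than in the MSMs of the same node, dendritic cell markers were higher in MSMs, and macrophage markers were highest in SSMs from tdLN.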

How the data were processed

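RNA was measured by SMART-Seq v4 libraries from about 10000 sorted cells. The authors deposited raw read counts per Ensembl gene for each lane, made with bcl2fastq 2.20.0.422, Trimmomatic 0.36 and STAR 2.5.3a on GRCm38, per the labels. The annotation release and the strand setting of the counting are not given in the sources used here. Of 55423 rows, 2 are added sequences (6 and 0 counts) and stayed out. Symbols came from GENCODE M21 for 55154 IDs.

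Genes with at least 10 counts in total and a count above 0 in 2 or more of the 16 samples were kept (21085 genes). edgeR 4.0.16 (R 4.3.3) fitted group and pool to all 8 libraries with TMM factors and its quasi-likelihood test, with p-values adjusted by the Benjamini-Hochberg method. Called ligands have an adjusted p under 0.01 and over 100 normalized counts per lane on average. SE is the absolute log2 fold change divided by the root of F. Pool is a block because the methods of the study say that each pool gave SSMs and MSMs of both nodes, and the labels number the nodes 1 and 2 (the labels name no mice). The methods count 4 pools, whereas the labels hold 2 numbers, each with lanes 3 and 4, and 2 pools are used here. The correlation of their deviations was -0.146 to 0.163 over 10000 genes. Tested on simulated data for SSMs against MSMs in ndLN (21085 genes, 200 changed), the edgeR fit recovered 163 of the 4-fold changes with 9 false calls among 172. It recovered 3 of the 2-fold changes with 2 false calls among 5, and made 0 calls without changes. The shares of false calls with changes were above the limit of 0.01. The simulation held no pool difference, drew the changed genes from the better expressed ones and did not apply the mean count limit. Alternatives were no pool, DESeq2 1.42.0, its size factors, no filter, lane 3 only, an adjusted p of 0.05, and leaving out each library. Values per library are given for ligands called in at least 1 contrast and for Ccl4 and Ccl20 by rule (which also names Ccl1 and Cxcl9), and for Ccl3, Ccl8, Cxcl1, Cxcl13 and Pf4, chosen after their values were seen. The members and lists were chosen with earlier results of these data known. Results for some genes are not reported here. The start regions came from RefSeq, with an entry for 26 of the 35 ligands. The floor of 3 counts covers counting error only.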

Additional observations from a re-analysis of the deposited data

Results flagged for a closer look

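A rule flagged 4 of the 23 ligands over the mean count limit. It took an interaction with an adjusted p under 0.05, or ratios of the same sign in both SSM pools and of the opposite sign in both MSM pools. The share of all genes that meet this rule was not computed, so the count is not read as a result. edgeR called the interaction of none at an adjusted p under 0.01. Cx3cl1 had an interaction of -3.25 on the log2 scale (edgeR's quasi-likelihood test, adjusted p = 0.0186), from per-pool log2 ratios of tdLN over ndLN of -3.16 and -4.20 in SSMs and -0.20 and -0.73 in MSMs. The other 3 had ratios of opposite sign in the subsets in both pools, although that of Cxcl3 in MSMs was close to 0 in pool 1. Ccl5 (interaction -1.65, adjusted p = 0.121) and Cxcl16 (1.23, adjusted p = 0.134) had ratios of mixed sign within a subset. Cxcl9 had an interaction of 2.51 (adjusted p = 0.112), with log2 ratios of 0.88 and 2.35 in SSMs and -1.54 and -0.72 in MSMs. Ccl22 had an interaction of -1.23 (adjusted p = 0.226), with log2 ratios of -1.21 and -0.57 in SSMs and 0.21 and 0.61 in MSMs. Cxcl3 had an interaction of -1.08 (adjusted p = 0.424), with log2 ratios of -1.03 and -0.13 in SSMs and 0.01 and 1.01 in MSMs.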

How the results depend on the processing

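No called ligand reversed its direction under any alternative that was run. With 2 libraries per group the calls were sensitive to single libraries: leaving out each in turn gave 3 to 12 ligands between SSMs and MSMs in ndLN, 3 to 12 in tdLN, 0 to 3 between nodes in SSMs, 0 to 0 between nodes in MSMs and 0 to 0 for the interaction. A group left with 1 library was assumed to vary like the others. For a contrast of 2 groups, only 4 of the 8 fits left out a library of these groups. The counts out of 8 below thus include fits that kept every library compared. In ndLN, calls were lost only in fits without a library compared, and so in tdLN except for Ccl12, Cxcl10 and Cx3cl1. Between nodes in SSMs this held for Cx3cl1 and Ccl24. Calls held in all 8 fits that left out a library for Ccl1, Cxcl16 and Cx3cl1 in ndLN and Ccl22 in tdLN. In ndLN, Ccl5, Cxcl9 and Xcl1 kept the call in 6 of the 8, Ccl6, Ccl7, Ccl17 and Ccl22 in 5, and Cxcl2 in 4. In tdLN, Cxcl2 and Xcl1 kept it in 7, Ccl17 in 6, Ccl1 and Ccl6 in 5, Cxcl16 in 4, Ccl12 and Cx3cl1 in 2, and Cxcl10 in 0. Between nodes in SSMs, Cx3cl1 kept it in 6, Ccl24 in 4, and Ccl12 and Cxcl2 in 0. A DESeq2 Wald test called 14 ligands in ndLN, 16 in tdLN, 12 between nodes in SSMs, 5 between nodes in MSMs and 5 for the interaction, and an adjusted p of 0.05 gave 11 between nodes in SSMs and 1 for the interaction. The cause was not tested. Lane 3 alone gave 13 ligands in ndLN, 13 in tdLN and 5 between nodes in SSMs, and no filter on low counts gave 11, 7 and 4. Without the replicate block, 12 ligands were called in ndLN, 9 in tdLN, 5 between nodes in SSMs, 0 between nodes in MSMs and 0 for the interaction. Without the block Ccl4 was gained in ndLN, Ccl9 in tdLN, and Ccl1 and Ccl3 between nodes in SSMs, while Ccl12 and Cxcl10 were lost in tdLN and Ccl24 between nodes in SSMs. No other call changed with the block. The shares of all genes called under these alternatives are not given here, so the counts show only how the calls depend on the processing. Ligands at a few counts per library, such as Ccl11 and Ccl28, are limited by depth.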
